A study of Homo sapiens with 6 samples.

Results

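The G1 cyclins, their kinases and their inhibitors decide whether a cell leaves G1 and starts DNA synthesis. Expression of 10 such genes, taken from a list of names, was followed in HCT116 cells, an established line from a human colorectal carcinoma. The members were the D-type cyclins CCND1, CCND2 and CCND3, the E-type cyclins CCNE1 and CCNE2, the kinases CDK4 and CDK6, and the inhibitors CDKN2A, CDKN2B and CDKN1B. Each was measured by exactly 1 probe set annotated to its symbol alone, among 18417 genes named in this way. The 6 arrays comprised 3 of the parental genotype and 3 of a mutant genotype, described as an HCT116-derived line in which DNA methylation is altered. Both groups were grown in McCoy's 5A medium with serum and antibiotics. The mutated gene is not named in the labels, and nothing says whether the mutant arrays represent more than 1 clone. An effect of the mutation and any unrelated divergence of the lines cannot be told apart.

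D-type cyclins are made in response to growth signals and bind CDK4 or CDK6, and the active complexes begin to phosphorylate the retinoblastoma protein RB1. Phosphorylated RB1 releases E2F factors, which turn on the E-type cyclins and the genes of DNA replication, and cyclin E with CDK2 completes the step. The INK4 proteins, to which the products of CDKN2A and CDKN2B belong, block CDK4 and CDK6, whereas p27, the product of CDKN1B, binds cyclin and CDK complexes and restrains cyclin E with CDK2. In HCT116 the CDKN2A gene is known for a frameshifted allele beside a methylated one.

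In the mutant arrays CDK6 mRNA was lower by a factor of 2.30, while 4 of the 5 cyclins and CDKN2A were modestly higher and CDKN1B was modestly lower. In total 7 of the 10 members passed the test (limma, Benjamini-Hochberg adjusted p under 0.05 over all 33297 probe sets), 5 higher and 2 lower. Over all 18417 genes 25.9% passed, 14.6% as higher and 11.3% as lower. Of the brighter genes, those whose mean log2 was 7 or more and which include 9 of the 10 members, 36.5% passed. The groups did not overlap in 7 of 10 members, against 45.8% of all genes. The median difference of the members, mutant minus parental, was 0.18 on the log2 scale, and that of all genes was 0.00336. Apart from CDK6, the differences of the other 9 members lay between -0.29 and 0.38. Values are RMA expression values on the log2 scale, so that a difference of 1 is a doubling, and levels of different probe sets cannot be set against each other. Arrays of bulk cells do not separate a change in the share of cells in a phase of the cycle from a change of RNA per cell.

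**Figure D1:**
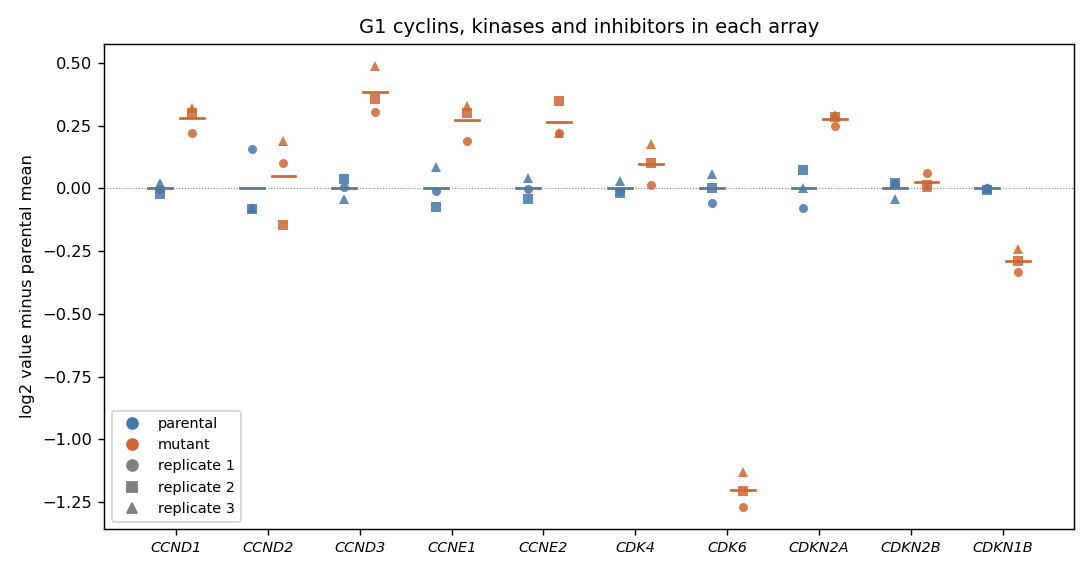
Log2 value of each member on each array minus the mean of its 3 parental arrays. Points are arrays, shapes are replicate numbers, and short lines are group means. The mutant mean of CDK6 lies at -1.20, and those of CCND1, CCND3, CCNE1, CCNE2 and CDKN2A lie above all parental arrays.

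The stretches before the annotated starts of CDK6, CDKN1B and CCNE1 are shown, since the first and second are the members that fell and the third is an E2F-responsive member that rose. Each holds the 250 bases before a RefSeq start, from GRCh38.p14, 5′ to 3′ in the direction of the gene, with GC boxes (GGGCGG on either strand) in capitals.
CDK6, chr7:92836574-92836823, minus strand: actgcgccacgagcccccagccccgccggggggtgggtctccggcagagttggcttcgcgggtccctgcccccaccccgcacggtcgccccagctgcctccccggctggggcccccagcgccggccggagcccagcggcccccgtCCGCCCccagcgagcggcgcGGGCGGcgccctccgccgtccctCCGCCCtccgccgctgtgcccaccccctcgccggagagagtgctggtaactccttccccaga
CDKN1B, chr12:12717118-12717367, plus strand: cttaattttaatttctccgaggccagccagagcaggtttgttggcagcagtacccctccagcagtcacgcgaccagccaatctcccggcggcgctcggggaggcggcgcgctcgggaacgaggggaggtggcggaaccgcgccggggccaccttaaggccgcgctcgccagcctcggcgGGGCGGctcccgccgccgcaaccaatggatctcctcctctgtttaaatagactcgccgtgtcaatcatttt
CCNE1, chr19:29811741-29811990, plus strand: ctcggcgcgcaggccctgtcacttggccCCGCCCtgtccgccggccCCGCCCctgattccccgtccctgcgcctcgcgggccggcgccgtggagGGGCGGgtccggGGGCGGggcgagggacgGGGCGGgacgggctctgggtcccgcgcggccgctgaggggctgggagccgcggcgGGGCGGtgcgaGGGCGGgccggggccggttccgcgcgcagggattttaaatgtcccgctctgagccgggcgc

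Windows of 300 bases, 250 before and 50 after a start, were searched for 7 of the members, which have 11 annotated starts among them. Of the other members, CCND1 and CCND2 had no window in the promoter set. CCNE2, on chromosome 8, was left out of the search, while the background windows were not filtered by chromosome. The counts of the members therefore do not cover CCND1, CCND2 and CCNE2. A GC box, the binding site of SP1-type factors, was found in 8 of the 11 windows, against 57.3% of 20107 windows of measured genes and 45.0% of all 35116 windows. The E2F words TTTCCCGC, TTTCGCGC, TTTGCCGC and TTTGGCGC, on either strand, were found in 0 of the 11 windows, against 4.15% of the windows of measured genes. The TATA word TATAAA, on either strand, was found in 0 of the 11 as well, against 9.06%. CpG pairs, the sites that DNA methylation acts on, numbered 47 in the CCNE1 window, more than in 96.8% of the windows of measured genes. The CDK6 start printed above had 37 and the CDKN1B window 29, against a median of 21. A second CDK6 start, not printed, had 29 CpG pairs and 0 GC boxes, whereas the printed one had 3 GC boxes. Every searched window of the 7 members held more CpG pairs than this median, except for 1 of the 3 CCND3 windows, which held 3. These counts describe letters within these windows, and methylation itself was not analysed here.

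CCND1, which encodes cyclin D1 and is the classical target of growth factor and WNT signals, rose slightly. Its parental arrays read 12.39, 12.37 and 12.42 and its mutant arrays 12.62, 12.70 and 12.71. All mutant arrays were above all parental arrays. The difference was 0.28 (SE 0.050, 95% interval 0.16 to 0.40, adjusted p = 0.0122), a factor of 1.22. Without parental replicate 2 or without mutant replicate 2 it no longer passed, with adjusted p-values up to 0.0545 over the 6 fits that each leave out 1 array.

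CCND3, which encodes cyclin D3, had the largest increase among the members. The parental arrays read 10.44, 10.47 and 10.39 and the mutant arrays 10.74, 10.79 and 10.92. The groups did not overlap, and the lowest mutant array lay 0.27 above the highest parental one. The difference was 0.38 (SE 0.064, 95% interval 0.23 to 0.54, adjusted p = 0.00940), a factor of 1.30, and CCND3 passed without any single array. An equal or larger increase was seen in 1490 of the 18417 genes.

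CCND2, which encodes cyclin D2 and is often silenced by methylation in tumours, was the single member with a mean log2 under 7. It read 5.75, 5.51 and 5.51 in parental arrays and 5.69, 5.45 and 5.78 in mutant arrays. The groups overlapped throughout. The difference of 0.05 had an interval of -0.22 to 0.32 (adjusted p = 0.831), so that a change of the size seen for CCND1 lies within it. RMA compresses differences of dim probe sets.

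The E-type cyclins rose by nearly the same amount. CCNE1 read 9.93, 9.87 and 10.03 in parental arrays and 10.13, 10.25 and 10.27 in mutant arrays. The gap between its groups was 0.10, the narrowest among the members that passed. Its difference was 0.27 (SE 0.067, 95% interval 0.11 to 0.44, adjusted p = 0.0367). CCNE2 read 10.01, 9.97 and 10.06 against 10.24, 10.37 and 10.24. Again no mutant array fell among the parental ones. Its difference was 0.26 (SE 0.059, 95% interval 0.12 to 0.41, adjusted p = 0.0262). Both calls were fragile. CCNE1 no longer passed without parental replicate 1 or 2 or mutant replicate 2 or 3 (adjusted p 0.0437 to 0.118 over the 6 fits), nor when array medians were subtracted. CCNE2 did not pass in any of the 6 fits (adjusted p 0.0530 to 0.0965).

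CDK6, a kinase partner of the D-type cyclins, showed the one large change. Its parental arrays read 10.01, 10.07 and 10.13, and its mutant arrays read 8.80, 8.86 and 8.94. The highest mutant array lay 1.07 below the lowest parental one, against an SD of 0.070 among the mutant arrays. The fitted difference was -1.20 (SE 0.060, 95% interval -1.35 to -1.05, adjusted p = 0.000133), which is a decrease to 43.5% of the parental level. Of the 18417 genes, 217 fell by as much or more, CDK6 included. The 6 fits without a single array gave -1.24 to -1.17, with adjusted p-values up to 0.00158. CDK6 was also the single member that passed when the test asked for a change of more than 1.2-fold.

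CDK4, the paralog with which CDK6 shares its cyclin partners, did not pass. It read 12.47, 12.46 and 12.51 in parental arrays and 12.50, 12.58 and 12.66 in mutant arrays, and the groups overlapped by 0.016. The difference of 0.10 had an interval of -0.05 to 0.24 (adjusted p = 0.346), which excludes a decrease of the size of CDK6.

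**Figure D2:**
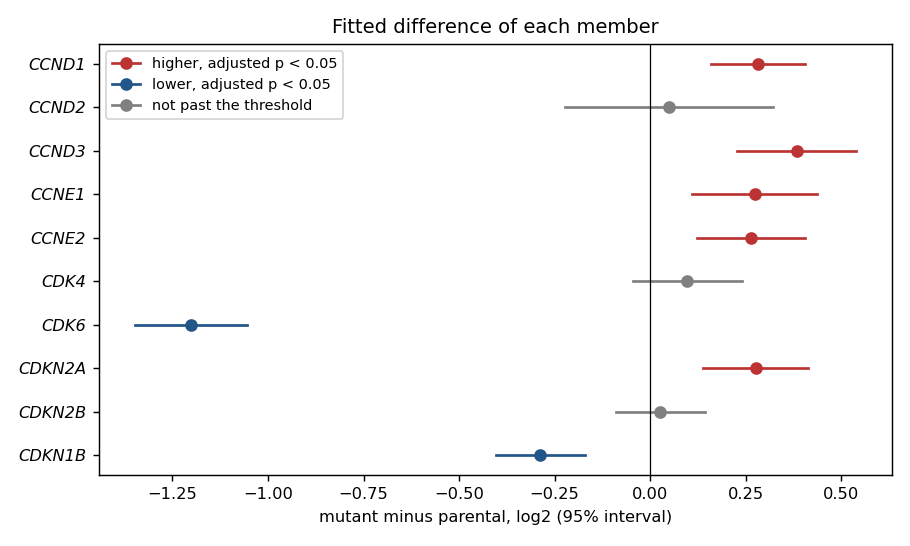
Fitted mutant minus parental difference of each member on the log2 scale, with its 95% interval from limma. CDK6 at -1.20 stands apart from the other members, which lie between -0.29 (CDKN1B) and 0.38 (CCND3).

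Of the inhibitors, CDKN1B, which encodes p27, fell. Its parental arrays were nearly identical at 9.82, 9.81 and 9.82, and the mutant arrays read 9.48, 9.53 and 9.57. The groups did not overlap. The difference was -0.29 (SE 0.048, 95% interval -0.40 to -0.17, adjusted p = 0.00915), a factor of 1.22, and CDKN1B passed without any single array.

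CDKN2A rose. Its parental arrays read 9.15, 9.31 and 9.23 and its mutant arrays 9.48, 9.51 and 9.52. All mutant arrays were higher than all parental ones, by at least 0.17. The difference was 0.28 (SE 0.057, 95% interval 0.14 to 0.41, adjusted p = 0.0201). It no longer passed without parental replicate 1 or 3 or without any of the mutant replicates (adjusted p 0.0342 to 0.0732). The annotation of its probe set lists transcripts of both p16 and ARF, which start at different first exons, so that the INK4 inhibitor and the p53-stabilising product cannot be told apart here.

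CDKN2B, which encodes p15 and is a known target of TGF-beta signals, read 8.14, 8.15 and 8.08 in parental arrays and 8.18, 8.14 and 8.13 in mutant arrays. The groups overlapped. The difference of 0.03 had an interval of -0.09 to 0.14 (adjusted p = 0.786), which lies below the smallest increase among the members that passed (0.26).

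Whether related members changed unequally was examined on each array by subtracting the log2 value of one from that of the other, which cancels anything that acts alike on both. There were 7 pairs, compared with an exact two-sided permutation test, whose smallest possible p for 3 against 3 arrays is 0.1 (0.14 after Benjamini-Hochberg adjustment over the pairs). No pair can therefore pass 0.05, and the sizes are descriptive. CDK4 minus CDK6 was 2.46, 2.39 and 2.38 on parental arrays and 3.69, 3.72 and 3.72 on mutant arrays. The shift of 1.30 is a 2.46-fold change in the ratio of CDK4 to CDK6 signal, with SDs of 0.042 and 0.013 (n = 3 each; exact p = 0.1). CCND1 minus CDKN1B, a D-type cyclin against the p27 gene, was 2.57, 2.56 and 2.60 on parental arrays and 3.13, 3.17 and 3.14 on mutant arrays. This shift of 0.57 had SDs of 0.020 and 0.018 (n = 3 each; exact p = 0.1).

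CDKN2A minus CDKN2B, neighbours in the INK4 locus, moved by 0.25 without overlap (exact permutation p = 0.1). CCND2 minus CCND3 moved by -0.33 and CCND1 minus CCND2 by 0.23, both also without overlap, though CCND2 is dim. The latter dropped to 0.15 without parental replicate 1 (exact permutation p = 0.4) and to 0.13 without mutant replicate 2 (exact permutation p = 0.3). CCND1 minus CCND3 moved by -0.10 with overlapping groups (exact permutation p = 0.2). CCNE1 minus CCNE2 moved by 0.0093 (exact permutation p = 0.9). The sign of that last value turned when parental replicate 2 was left out (-0.0073) and when mutant replicate 3 was left out (-0.040).

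**Figure D3:**
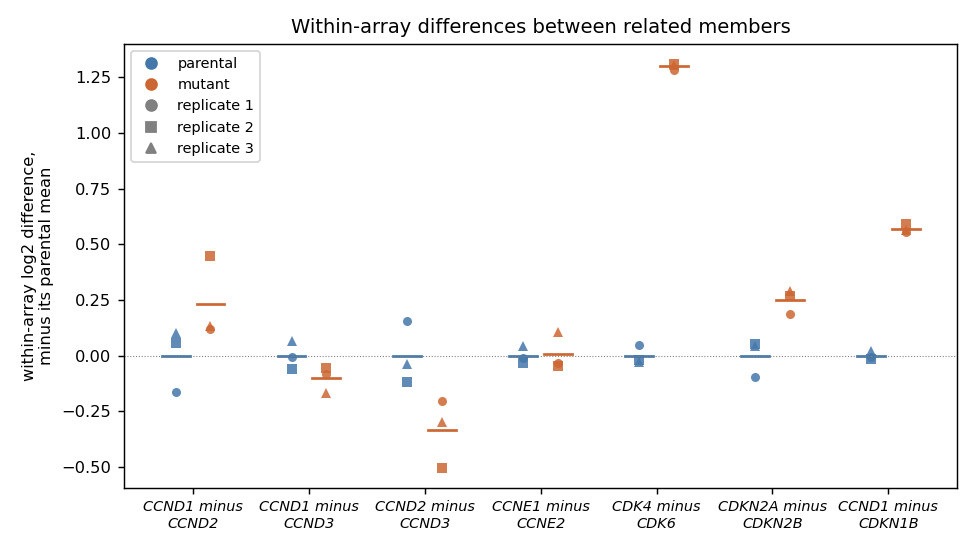
Within-array log2 difference between the members of each pair, minus its parental mean. Points are arrays, shapes are replicate numbers and short lines are group means. CDK4 minus CDK6 rose by 1.30, CCND1 minus CDKN1B by 0.57, and CCNE1 minus CCNE2 had overlapping groups.

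Each member was also set beside the 10 measured genes on either side of it whose mean log2 was 7 or more. The 20 genes around CDK6 on chromosome 7 had a median difference of 0.06, with 6 higher and 3 lower. The values nearest to CDK6 were 0.12 for RBM48 on one side and -0.54 for SAMD9 on the other (both named after their values were seen). Of the 20, only the imprinted gene PEG10, also named after its values were seen, had a lower value (-2.06) than CDK6. The genes around CDKN2A and CDKN2B on chromosome 9, by contrast, had a median of 0.23, with 10 of 20 higher and 2 lower. The differences were 0.28 for CDKN2A and 0.03 for CDKN2B, and each is counted among the neighbours of the other. Of all genes with a mean log2 of 7 or more, 36.5% were called in either direction. At any brightness 14.6% of genes were higher and 11.3% lower. MTAP, next to CDKN2A, was lower (-0.55), and DMRTA1, next to CDKN2B on the other side, gave -0.01 (both named after their values were seen). Without the minimum on brightness the median around CDKN2A was 0.02. Around the other members the median lay between -0.07 (CDKN1B) and 0.08 (CCNE2). With 5 genes on each side, the median turned from 0.04 to -0.05 around CCND1 and from -0.03 to 0.09 around CCND2. Whether these neighbourhoods bear on the members was not tested.

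**Figure D4:**
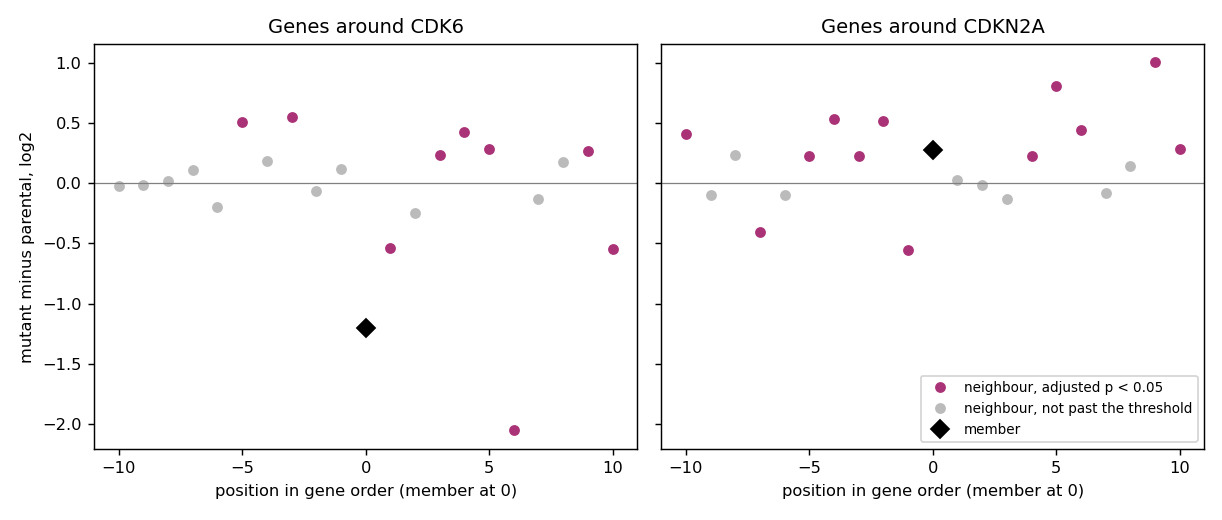
Mutant minus parental difference of CDK6, CDKN2A (diamonds) and the 10 measured genes on each side in gene order. Around CDK6 the neighbours have a median of 0.06 with CDK6 at -1.20, and around CDKN2A a median of 0.23 with CDKN2A at 0.28.

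The rest of the pathway was described through 8 lists of related genes, with 154 of 163 entries measured. Of these, 26 were higher and 32 lower, with a median of -0.02. The 58 called genes are 37.7% of those measured, near the 36.5% of all genes with a mean log2 of 7 or more, a brightness that 146 of the 154 reach. The total of 58 dropped to 34 without parental replicate 2, to 38 without mutant replicate 1 and to 35 without mutant replicate 2.

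Among 3 other measured CDK inhibitors, CDKN1A, which encodes p21, rose by 0.23 (adjusted p = 0.0408), and 0 fell. This call was lost whichever array was left out. CDKN1C, which encodes p57, gave 0.01, and CDKN2D, another INK4 gene, gave -0.02 (adjusted p = 0.953 and 0.859).

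The pocket proteins, E2F factors and their partners went both ways, with 4 of 19 higher, 7 lower and a median of -0.16. All 19 had a mean log2 of 7 or more, and the 57.9% called stood against 36.5% of such brighter genes. E2F5, a repressor-type E2F, rose from 8.39 ± 0.13 to 9.24 ± 0.05 (log2 ± SD, n = 3 each), and LIN9 (0.73) and LIN54 (0.35), subunits of the DREAM and MuvB complexes, also rose. The count of increases was 2 to 4 when single arrays were left out, and moved by over 1.5 times without parental replicate 1 or 2 or mutant replicate 2 or 3. The largest decreases were of MYBL2, which encodes the B-MYB partner of MuvB (-0.60), TFDP2, a dimer partner of E2F (-0.41), and E2F2, an activating E2F (-0.39). RB1 itself, named after its values were seen, changed by -0.33 (adjusted p = 0.00421). E2F1, also named after its values were seen, gave -0.35 (adjusted p = 0.00449).

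E2F targets of the G1/S transition went down more often than up. Of 27 measured, all with a mean log2 of 7 or more, 13 fell and 1 rose, with a median of -0.19. The 51.9% called stood against 36.5% of brighter genes. Over all genes 11.3% were lower and 14.6% higher. The largest decreases were of TK1, thymidine kinase (-0.88), MCM4, a helicase subunit (-0.88), and TYMS, thymidylate synthase (-0.70). RRM1, a subunit of ribonucleotide reductase, rose by 0.22. With each array left out in turn, 6 to 8 were lower and 0 higher, and each of the 6 arrays moved both counts by over 1.5 times.

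Of 17 measured S phase and mitotic cyclins, kinases and switches, 1 rose and 3 fell (23.5% called, below the background of all genes), with a median of -0.05. CCNB2, a mitotic cyclin, rose by 0.21, a call lost whichever array was left out. The inhibitory kinase gene PKMYT1 (-0.58) and the phosphatase genes CDC25C (-0.54) and CDC25B (-0.28) fell. CDK2, the partner of the E-type cyclins and named after its values were seen, gave -0.12 (adjusted p = 0.127). Of 10 proliferation markers 3 rose and 1 fell (40.0% called, near the share of brighter genes), with a median of 0.08. TOP2A (0.33), CENPF (0.33) and BUB1 (0.19) were higher and BIRC5, which encodes survivin, fell by 0.36. The 3 increases became 2 whichever array was left out, and the 1 decrease stayed.

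Genes for the turnover of G1 cyclins and p27 had 5 of 20 higher and 1 lower, with a median of 0.09. The 30.0% called in the main fit lay between the 25.9% of all genes and the 36.5% of brighter genes. This count does not set the list apart. SKP2, the F-box protein that targets p27 for degradation, rose from 11.73 ± 0.03 to 12.25 ± 0.01 (log2 ± SD, n = 3 each), with an adjusted p of 0.000894. UBAC1, a subunit of the KPC ligase of p27, rose by 0.60, and SKP1, the adaptor of SCF ligases, by 0.27. USP2, a deubiquitinase of cyclin D1, fell by 0.73. The 5 increases became 2 to 4 with single arrays left out, moving by over 1.5 times for each parental replicate and for mutant replicates 1 and 2. These are mRNA levels, and the proteins were not measured.

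Of 30 measured genes known to regulate transcription of the members, 7 rose and 5 fell, with a median of 0.05. This is 40.0% called, near the share of brighter genes. ETS1, an ETS family transcription factor, fell by 1.87, from 7.60 ± 0.12 to 5.73 ± 0.19 (log2 ± SD, n = 3 each), with an adjusted p of 0.000249. TGFBR2, the receptor upstream of CDKN2B induction (-1.31), and TCF7L2, the WNT effector at CCND1 (-0.92), fell as well. KLF4 (0.73), FOSL2 (0.56) and NFKB1 (0.41) were the largest increases. MYC, named after its values were seen, gave -0.18 (adjusted p = 0.0834).

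Other cyclins and cyclin-dependent kinases showed smaller differences than CDK6. Of 28 measured, 4 rose and 2 fell, with a median of 0.07. The 21.4% called in the main fit was below the 25.9% of all genes. CDK17 (0.30), CCNG1 (0.29), a p53 target, and CDKL1 (0.23) were higher, and CCNT1, the cyclin of the elongation kinase CDK9, and CCNC, of the Mediator kinase module, fell (-0.35 and -0.34). With single arrays left out 2 to 3 were higher and 1 to 2 lower. The first count moved by over 1.5 times without parental replicate 1 or 2 or any mutant replicate, and the second without parental replicate 2 or mutant replicate 2.

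**Figure D5:**
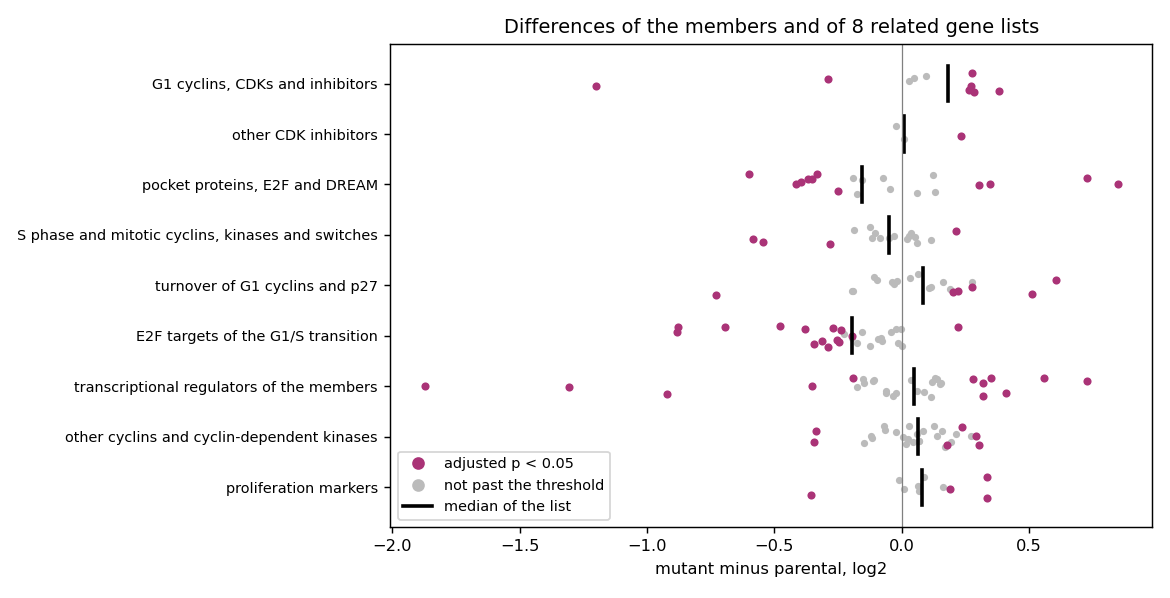
Mutant minus parental differences of the 10 members and of the genes of 8 related lists. Each point is a gene, coloured where its adjusted p was under 0.05, and black bars are list medians. The members' median is 0.18 and that of the E2F targets is -0.19.

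Genes whose profile over the 6 arrays was nearest to that of a member were named for CDK6, CCND3 and CDKN1B, by the root mean square distance between values centred on each gene's own mean, with the same minimum on brightness. Nearest to CDK6 were the actin regulator gene GSN (distance 0.037, difference -1.16), HOXB9 (0.042, -1.25) and the G protein gene GNAI1 (0.044, -1.25). Nearest to CCND3 were PAAF1, HOMER3 and CNP, with distances of 0.012 to 0.032. Nearest to CDKN1B were ADGRG1, FOXK2 and PLEKHG6, at 0.0055 to 0.013. With 6 arrays in 2 groups, this likeness mostly restates the size of the group difference.

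Array medians lay between 6.88 and 6.93, and no array stood apart in its median. Of 10 epithelial and colon markers, EPCAM and the keratins KRT8, KRT18 and KRT19 were bright, with means from 11.83 to 13.32 in either group, while the brush border gene VIL1 (5.76 in both groups) and GPA33 (5.82 and 5.72) were dim. CDX2 (8.52 and 8.48), CDX1 (7.12 and 7.10) and LGALS4 (6.92 and 6.84) lay between these. In this list 0 were higher and 4 lower. CDH1, the epithelial cadherin, changed by -1.36, more than CDK6, and KRT18 by -0.88, KRT8 by -0.53 and KRT19 by -0.47 (limma, adjusted p up to 0.00208). Their part in the members' differences was not tested. The list mean was 9.48 to 9.52 in parental and 9.11 to 9.22 in mutant arrays. Leukocyte markers had 0 of 9 higher or lower and list means of 5.22 to 5.30 over both groups, with no gene mean above 6.16. Fibroblast markers had 1 of 10 higher and 0 lower (list means 5.26 to 5.37), and endothelial markers 0 of 8 in either direction (5.97 to 6.12). The highest gene mean was 8.22 among the fibroblast markers and 7.41 among the endothelial ones.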

How the data were processed

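RNA from 3 parental and 3 mutant HCT116 samples was hybridised to Affymetrix whole-transcript arrays, per the labels. The deposited values are log2 expression values per probe set made by the authors using the tools RMA and Partek, as the submitters' processing notes record; their versions are not stated there. RMA equalises the distributions of the arrays and so removes differences in total RNA per cell. Arrays have no read depth, and precision is limited by their number. Of 33297 probe sets, 19460 carried exactly 1 symbol, 1754 several and 12083 none; a gene was represented by its brightest single-symbol probe set, which gave 18417 genes.

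Differences were tested on all probe sets with limma 3.58.1 in R 4.3.3 (lmFit and eBayes, no covariates, two-sided), adjusted by Benjamini-Hochberg and called under 0.05. The fit was also run on simulated arrays with independent noise, in which the changes exceeded those of every member but CDK6. That run therefore does not bear on the smaller differences. Gene order and promoter windows came from RefSeq tables of GRCh38.p14. The rest used Python 3.11.15 with pandas 2.3.3 and numpy 2.4.6, and figures matplotlib 3.10.9. The members and lists were chosen with earlier results of these data known. The rule for naming genes takes all members, up to 3 called genes per list and direction, and the 3 genes nearest in profile to the 3 called members with the largest differences. Alternatives changed normalization, filters, the variance model, the replicate block, the minimum fold, the probe sets and the arrays; testing identical probe sets once was chosen after seeing the data. No label ties the arrays to separate cultures; the p-values then reflect the spread among these samples alone, possibly technical.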

Additional observations from a re-analysis of the deposited data

How the results depend on the processing

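The 7 calls among the members became 1 (CDK6) when the test required more than a 1.2-fold change, a stricter test by construction, and 3 to 5 when single arrays were left out, with fewer samples. CDK6, CCND3 and CDKN1B passed in all 6 of those fits. Of the pathway genes, 58 were called, 16 with the minimum fold and 34 to 41 with single arrays left out. Deviations of parental and mutant arrays with the same replicate number correlated at -0.014 to 0.043, and those with different numbers at -0.064 to 0.060. These values show no pairing by number, and whether samples with the same number were handled together was not tested. With the replicate block 4 members (CCND1, CCND3, CDK6 and CDKN1B) and 35 pathway genes were called. Under the 9 other settings and with identical probe sets tested once, 6 or 7 members were called. CCNE1 was lost with array medians subtracted and with the ordinary linear model. Pathway calls under those 9 settings ranged from 49 (array medians subtracted) to 80 (mean log2 of at least 7). These 2 settings called 17.2% and 43.9% of their probe sets, against 18.5% in the main fit. With that minimum on brightness 8 turnover genes were higher and 3 lower, and 7 other cyclins and kinases higher and 4 lower. No call of a member changed direction. The CCND2 difference, not called, turned to -0.020 without mutant replicate 3 (up to 0.15 with other arrays left out). CCNE1 minus CCNE2 turned to -0.0073 and -0.040 without parental replicate 2 and without mutant replicate 3 (up to 0.038 with others left out). Quantile normalization again moved CDK4 minus CDK6 to 1.34 and CCND1 minus CDKN1B to 0.61, by more than the spread between arrays. The median of the genes around CDK6 was 0.21 with 5 genes on each side and -0.0011 without a minimum on brightness; the cause was not tested. CCND2, with a mean log2 under 7, is limited by its dim signal.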
